A study of Mus musculus with 8 samples.

Results

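The genes described here are 10 that govern entry into the cell cycle, chosen by symbol: the D-type cyclins Ccnd1, Ccnd2 and Ccnd3, their kinases Cdk4 and Cdk6, the CIP/KIP inhibitors Cdkn1a (p21) and Cdkn1b (p27), the INK4 inhibitors Cdkn2c (p18) and Cdkn2d (p19), and cyclin G2 (Ccng2). All 10 are among the 38215 genes listed in the tables, and all 10 were among the 13397 genes with enough counts to be tested. They were measured by bulk RNAseq in FoxP3+ regulatory T cells (Treg) sorted from the bone marrow (BM-Treg, 4 libraries) and from the spleen (SP-Treg, 4 libraries) of naïve B6.FoxP3-GFP mice aged 12 weeks. In these mice a green fluorescent protein reports FoxP3, the transcription factor that defines Treg, and the label gives the genotype as C57Bl/6 in both tissues. No treatment was given to either group. The comparison asks how the transcriptional profile of marrow Treg differs from that of splenic Treg, and a positive log2 fold change below means a higher level in BM-Treg.

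According to the labels, BM-Treg replicates 1 to 3 came from females in batch 1, whereas BM-Treg replicate 4 and the whole of the SP-Treg group came from males in batch 3. Tissue, batch and sex therefore cannot be told apart in most of the data, and BM-Treg replicate 4 is the only marrow library in the batch of the SP-Treg. Its fold change against the SP-Treg libraries is given beside the main results as the value within batch 3. A model with batch as a term is also given. Batch 1 holds only BM-Treg, so the tissue difference of that model rests on BM-Treg replicate 4 against the SP-Treg as well. The other BM-Treg libraries add only to its estimate of spread, and the model is not a separate check of the value within batch 3. The labels do not say which libraries came from separate mice or pools, so that p-values measure the spread between these samples. The paper's methods give female mice as the default, unlike the male labels of batch 3. Sex is used here as labelled, and which of these holds is not known.

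The D-type cyclins are induced by growth signals and activate CDK4 and CDK6, which phosphorylate the retinoblastoma proteins and so release E2F transcription factors that drive the genes of S phase. The INK4 proteins bind CDK4 and CDK6 and keep them from cyclin D, whereas the CIP/KIP proteins mainly restrain the CDK2 complexes and are themselves held by the cyclin D complexes. In T cells the balance of these parts is known to set the difference between a resting and a dividing state, with p27 high in resting cells and cyclin D2, cyclin D3 and CDK6 as the main parts induced on activation. Cyclin G2 belongs to another branch, being a FOXO-driven cyclin found in cells that leave the cycle.

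Promoter sequences of 8 of the 10 genes were found in RefSeq (GRCm38.p6), each from 250 bases before to 50 bases after an annotated start, and none was matched for Ccnd1 and Ccnd2. The windows shown are those of the genes on which the results below turn, Cdk6 and Cdkn2d, which passed the test, and Cdk4 and Cdkn2c, whose levels did not overlap between the tissues. They are printed from 5′ to 3′ on the strand of the gene, and capitals mark the E-box CACGTG, the element bound by MYC and MAX and by other basic helix-loop-helix factors. The Cdk6 window is chr5:3343643-3343942 (+), the Cdk4 window chr10:127063285-127063584 (+) and the Cdkn2d window chr9:21291160-21291459 (-). Cdkn2c has an upstream window at chr4:109666707-109667006 (-) and a downstream window at chr4:109665323-109665622 (-).
Cdk6: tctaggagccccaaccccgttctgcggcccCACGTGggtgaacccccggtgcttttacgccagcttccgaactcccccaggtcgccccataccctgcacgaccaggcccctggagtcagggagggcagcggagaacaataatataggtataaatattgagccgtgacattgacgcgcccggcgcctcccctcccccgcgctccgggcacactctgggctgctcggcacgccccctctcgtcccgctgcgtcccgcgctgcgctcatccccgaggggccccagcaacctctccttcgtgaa
Cdk4: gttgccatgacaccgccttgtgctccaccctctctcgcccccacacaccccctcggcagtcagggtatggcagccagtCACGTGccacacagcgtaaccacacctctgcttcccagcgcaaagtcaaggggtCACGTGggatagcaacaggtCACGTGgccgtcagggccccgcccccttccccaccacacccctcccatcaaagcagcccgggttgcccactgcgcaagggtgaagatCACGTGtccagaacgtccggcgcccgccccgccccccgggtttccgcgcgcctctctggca
Cdkn2d: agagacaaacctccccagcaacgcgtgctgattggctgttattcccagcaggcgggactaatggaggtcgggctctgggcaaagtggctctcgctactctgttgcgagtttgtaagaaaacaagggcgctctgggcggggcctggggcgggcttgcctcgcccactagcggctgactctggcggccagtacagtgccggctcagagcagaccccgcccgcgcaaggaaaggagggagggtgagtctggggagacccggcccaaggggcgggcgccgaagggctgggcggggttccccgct
Cdkn2c, upstream start: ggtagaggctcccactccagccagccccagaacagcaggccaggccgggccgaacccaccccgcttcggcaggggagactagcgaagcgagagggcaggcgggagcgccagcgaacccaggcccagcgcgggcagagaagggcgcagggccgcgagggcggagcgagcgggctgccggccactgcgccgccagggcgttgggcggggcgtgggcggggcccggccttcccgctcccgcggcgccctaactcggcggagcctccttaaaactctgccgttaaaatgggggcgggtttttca
Cdkn2c, downstream start: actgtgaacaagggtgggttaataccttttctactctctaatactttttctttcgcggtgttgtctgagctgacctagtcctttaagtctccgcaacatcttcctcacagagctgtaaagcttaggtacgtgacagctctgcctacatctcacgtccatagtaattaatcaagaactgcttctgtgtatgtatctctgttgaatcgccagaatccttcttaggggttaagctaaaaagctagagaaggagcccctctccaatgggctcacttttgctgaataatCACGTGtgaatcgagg

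The E-box was present in 3 of the 11 windows of these genes, compared with 7.15% of all 32851 RefSeq windows of the same length. Cdk6 held 1, beginning 220 bases before its start, and Cdk4 held 4, between 172 and 11 bases before its start. In Cdkn2c it lay 34 bases past the downstream start. The GC box GGGCGG, searched on both strands like the other motifs, was in 8 of the 11 windows against 35.7% of all windows, and CCAAT was in 4 against 37.4%. Both Cdk6 and the downstream window of Cdkn2c lacked the GC box. The FOXO element TGTTTAC was in 1 window, of Ccnd3, against 3.65% of all, and the E2F element TTTCGCG or TTTGGCG was in 1, the downstream window of Cdkn2c, against 2.37%. Of the pair of Cdkn2c windows, the upstream one had a GC content of 73.3% and the downstream one 44.0%. Such matches describe the letters of these windows and were not tested against the expression of the genes.

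BM-Treg held less mRNA of Cdk6 and more of Cdkn2d than SP-Treg, and these were the 2 of the 10 genes that passed the test (edgeR's quasi-likelihood test, Benjamini-Hochberg adjusted p under 0.05 over all genes tested). Of all 13397 genes tested, 8.75% passed, 3.72% with higher and 5.02% with lower levels in BM-Treg. In 4 of the 10 genes, Cdk4, Cdk6, Cdkn2c and Cdkn2d, the libraries of the tissues did not overlap, as was the case for 16.2% of all genes tested. The 5 D-type cyclins and kinases all had negative log2 fold changes, with a median of -0.31 (that of Ccnd1 was 0.042 without SP-Treg replicate 2), whereas the 4 CIP/KIP and INK4 inhibitors all had positive ones, with a median of 0.44. Of the inhibitors, Cdkn1a was at 0.00067 without BM-Treg replicate 3, and Cdkn1b at 0.034 within batch 3. The median over the 10 genes was -0.062 and that over all genes tested was -0.012. Levels are given as CPM, counts scaled to a common library size after correction for library composition, which do not account for gene length.

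**Figure D1:**
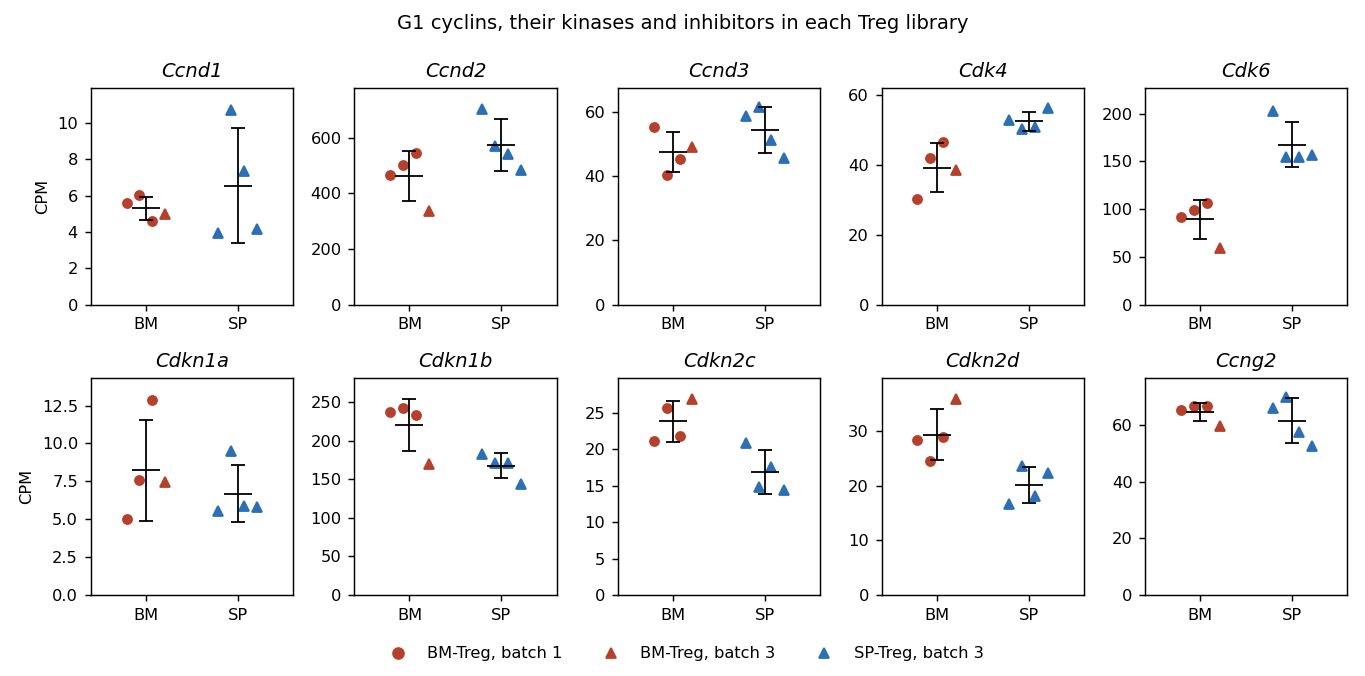
Level of each of the 10 genes in CPM (y axis, from 0) in each library of bone marrow (BM) and spleen (SP) Treg, with circles for batch 1 and triangles for batch 3, and the mean with SD (n = 4 per tissue) in black. The libraries of the tissues do not overlap for Cdk4, Cdk6, Cdkn2c and Cdkn2d.

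**Figure D2:**
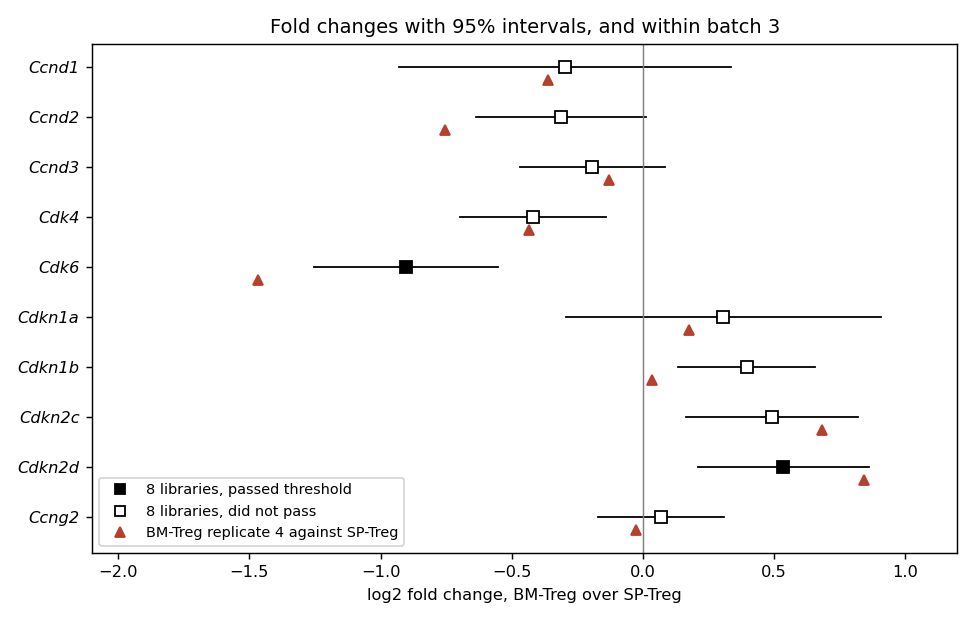
Log2 fold change of BM-Treg over SP-Treg (x axis) with its 95% confidence interval for the 10 genes (y axis), filled where the adjusted p passed 0.05, with red triangles for BM-Treg replicate 4 against the SP-Treg libraries. Intervals lie wholly below 0 for Cdk4 and Cdk6 and wholly above 0 for Cdkn1b, Cdkn2c and Cdkn2d, and the triangle of Cdkn1b lies near 0, at 0.034.

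Ccnd2, on chromosome 6 (GRCm38, 127125779 to 127151048), encodes cyclin D2, a D-type cyclin that T cells induce on stimulation. It was measured at 466, 503, 547 and 337 CPM in BM-Treg replicates 1 to 4 and at 704, 571, 542 and 483 CPM in SP-Treg replicates 1 to 4. The tissues overlapped, and the lowest value was that of BM-Treg replicate 4. The log2 fold change was -0.31 ± 0.15 (SE, n = 4 per tissue) with a 95% confidence interval of -0.64 to 0.013, and the adjusted p of edgeR's test was 0.233. Within batch 3 it was -0.75, and in a model with batch as a term it was -0.77 with an adjusted p of 0.0704. Without BM-Treg replicate 4 it was -0.19 (adjusted p = 0.456), and without SP-Treg replicate 1 it was -0.18 (adjusted p = 0.537).

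Ccnd3 on chromosome 17 (47505051 to 47599683) encodes cyclin D3, the D-type cyclin of developing lymphocytes. Its levels were 55.3, 40.3, 45.4 and 48.9 CPM in the marrow and 58.7, 61.4, 51.1 and 45.7 CPM in the spleen. They overlapped, with a log2 fold change of -0.19 ± 0.13 (SE), an interval of -0.47 to 0.083 and an adjusted p of 0.405 in edgeR. Ccnd1 on chromosome 7 (144929931 to 144939869), whose product cyclin D1 is the main D-type cyclin of many non-lymphoid cells, was low throughout. Its levels were 5.59, 6.03, 4.60 and 5.02 CPM in the marrow and 3.96, 10.7, 7.37 and 4.19 CPM in the spleen, from 55.1 to 134 counts in a library. The SP-Treg libraries lay on both sides of the BM-Treg, and the log2 fold change of -0.30 ± 0.30 (SE) had an adjusted p of 0.596 in edgeR and was 0.042 without SP-Treg replicate 2.

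Cdk6, on chromosome 5 (3343893 to 3523218), encodes the cyclin D kinase that is prominent in blood cells. BM-Treg replicates 1 to 4 had 92.0, 98.9, 107 and 59.7 CPM, and SP-Treg replicates 1 to 4 had 203, 155, 155 and 157 CPM. The highest BM-Treg library lay well below the lowest SP-Treg library, and SP-Treg replicate 1 stood above the other SP-Treg. The log2 fold change was -0.90 ± 0.16 (SE, n = 4 per tissue), with an interval of -1.25 to -0.55 and an adjusted p of 0.00446 in edgeR, that is, a level 1.87-fold higher in SP-Treg. Cdk6 passed under all 19 alternatives, among them the 8 in which a library was left out, with log2 fold changes from -1.49 to -0.76. The difference was larger within batch 3, at -1.47, and in the model with batch as a term it was -1.49 with an adjusted p of 0.00374, a model in which 1.93% of all genes tested passed.

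Cdk4, the partner kinase, lies on chromosome 10 (127063534 to 127067920). Its levels were 30.1, 41.8, 46.5 and 38.4 CPM in the marrow and 52.7, 50.3, 50.7 and 56.2 CPM in the spleen. The tissues did not overlap, yet the log2 fold change of -0.42 ± 0.13 (SE, interval -0.70 to -0.14) had an adjusted p of 0.0608 in edgeR. The value within batch 3 was -0.43. In FPKM, which divides the counts by transcript length and depth, the libraries overlapped, at 29.2 to 41.1 in BM-Treg and 36.0 to 42.9 in SP-Treg, and the log2 fold change on the log2(FPKM + 1) scale was -0.17. The gene overlaps Tspan31 on the other strand by 604 bases of its locus, and since the counting is not stated to use strand, reads of the shared part may have been given to either gene; Tspan31 itself was between 12.6 and 16.9 CPM.

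Cdkn2d, on chromosome 9 (21288463 to 21291209), encodes p19, an INK4 inhibitor of CDK4 and CDK6. It was measured at 28.3, 24.5, 28.8 and 35.8 CPM in the marrow and at 16.8, 23.5, 18.1 and 22.4 CPM in the spleen. All BM-Treg libraries lay above all SP-Treg libraries, although BM-Treg replicate 2 and SP-Treg replicate 2 were close. The log2 fold change was 0.54 ± 0.15 (SE, n = 4 per tissue, interval 0.21 to 0.86), with an adjusted p of 0.0422 in edgeR and a level 1.45-fold higher in BM-Treg. It was 0.84 within batch 3, where the adjusted p was 0.128, and 0.83 with batch as a term, where it was 0.0616. When each library was left out in turn, Cdkn2d passed 3 of 8 times, and it fell short, with adjusted p up to 0.108, without BM-Treg replicate 1, 3 or 4 or SP-Treg replicate 1 or 3.

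Cdkn2c, on chromosome 4 (109660876 to 109667189), encodes p18, the other INK4 inhibitor measured. Its levels were 21.1, 25.6, 21.8 and 26.8 CPM in the marrow and 20.9, 14.8, 17.6 and 14.4 CPM in the spleen. The tissues did not overlap, but BM-Treg replicate 1 and SP-Treg replicate 1 were nearly equal. The log2 fold change of 0.49 ± 0.15 (SE, interval 0.16 to 0.82) had an adjusted p of 0.0610 in edgeR, and without SP-Treg replicate 1 it was 0.63 with an adjusted p of 0.0272. Within batch 3 it was 0.68. The remaining INK4 genes, Cdkn2a and Cdkn2b, had too few counts to be tested.

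Cdkn1b, on chromosome 6 (134920401 to 134925513), encodes p27, the CIP/KIP inhibitor most abundant in resting lymphocytes. BM-Treg had 237, 242, 233 and 169 CPM and SP-Treg had 182, 171, 172 and 144 CPM. BM-Treg replicates 1 to 3 lay together above all SP-Treg, whereas BM-Treg replicate 4 lay among them. The log2 fold change was 0.40 ± 0.12 (SE, interval 0.14 to 0.66) with an adjusted p of 0.0580 in edgeR. Without BM-Treg replicate 4 it was 0.50 with an adjusted p of 0.0133, while within batch 3 it was 0.034 and with batch as a term 0.016, with an adjusted p of 0.972. The higher level was thus measured in the marrow libraries of batch 1, in which tissue, batch and sex cannot be told apart.

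Cdkn1a, on chromosome 17 (29090979 to 29100722), encodes p21, the CIP/KIP inhibitor induced by p53. It was low in both tissues, at 4.99, 7.61, 12.8 and 7.44 CPM in the marrow and 5.54, 9.50, 5.86 and 5.81 CPM in the spleen. The libraries overlapped and the log2 fold change of 0.31 ± 0.28 (SE, interval -0.29 to 0.91) had an adjusted p of 0.559 in edgeR. Without BM-Treg replicate 3, its highest library, the log2 fold change of Cdkn1a was 0.00067. Ccng2 on chromosome 5 (93267257 to 93276231) was the gene with the smallest difference. Its levels were 65.3, 66.6, 66.7 and 59.7 CPM in the marrow and 66.2, 69.995, 57.4 and 52.8 CPM in the spleen, with a log2 fold change of 0.069 ± 0.11 (SE), an interval of -0.17 to 0.31 and an adjusted p of 0.763.

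The order of the genes among themselves was read from FPKM, which allow levels of different genes to be compared. Ccnd2 was the most abundant of the 10 in both tissues, at 84.7 ± 19.1 FPKM in BM-Treg and 100.5 ± 23.2 FPKM in SP-Treg (SD, n = 4 each). In BM-Treg it was followed by Cdkn1b (53.7 ± 9.07 FPKM), Cdk4 (33.9 ± 5.82 FPKM), Cdk6 (25.1 ± 6.51 FPKM), Cdkn2d (25.0 ± 3.01 FPKM), Ccnd3 (24.1 ± 3.15 FPKM), Ccng2 (19.8 ± 1.67 FPKM) and Cdkn2c (19.4 ± 2.51 FPKM). Neighbours in this order overlapped in their ranges down to Cdkn2c. Within single libraries, each of Ccnd2, Cdkn1b and Cdk4 lay above the next gene in 4 of 4, as did Ccnd3. Cdk6 lay above Cdkn2d and Cdkn2d above Ccnd3 in 3 of 4, and Ccng2 above Cdkn2c in 2 of 4. The order of Cdk6, Cdkn2d and Ccnd3 and that of Ccng2 and Cdkn2c are thus not fixed by these data. Cdkn1a (9.59 ± 4.49 FPKM) lay clear below Cdkn2c, and Ccnd1 (1.49 ± 0.206 FPKM) clear below Cdkn1a.

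In SP-Treg the second most abundant gene was Cdk6 (45.2 ± 9.80 FPKM), which ranked 4 in BM-Treg. Cdkn1b (39.0 ± 5.64 FPKM), Cdk4 (37.9 ± 3.35 FPKM), Ccnd3 (26.5 ± 4.45 FPKM), Ccng2 (19.4 ± 2.45 FPKM), Cdkn2d (16.4 ± 2.25 FPKM) and Cdkn2c (14.5 ± 3.71 FPKM) followed. Ccnd2 did not overlap with Cdk6 in SP-Treg, nor Cdk4 with Ccnd3, while the other neighbours down to Cdkn2c overlapped. Within single libraries, Cdk6 lay above Cdkn1b and Ccnd3 above Ccng2 in 4 of 4. Cdkn1b lay above Cdk4 and Ccng2 above Cdkn2d in 3 of 4, and Cdkn2d above Cdkn2c in 2 of 4. Cdkn1a (7.65 ± 1.31 FPKM) and Ccnd1 (1.72 ± 0.767 FPKM) again closed the order without overlap. Among the D-type cyclins, Ccnd2 made up 69.8% to 80.5% of the summed FPKM in BM-Treg and 75.1% to 80.4% in SP-Treg, so that its predominance over Ccnd3 and Ccnd1 did not separate the tissues.

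The kinases and the INK4 inhibitors were also set against each other within each library. Cdk4 and Cdk6 together came to 55.4, 64.6, 71.4 and 44.9 FPKM in BM-Treg and 96.4, 76.1, 75.5 and 84.2 FPKM in SP-Treg. Cdk6 made up 47.2%, 43.9%, 42.4% and 35.0% of that sum in BM-Treg, and 62.1%, 52.5%, 52.4% and 49.0% in SP-Treg, so that Cdk4 was the larger part in every marrow library and in SP-Treg replicate 4. Cdkn2c and Cdkn2d together came to 41.1, 41.8, 43.5 and 51.2 FPKM in BM-Treg and 34.9, 30.2, 28.2 and 30.4 FPKM in SP-Treg. In neither sum did the tissues overlap.

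The ratio of INK4 to CDK4 and CDK6 transcripts was 0.741, 0.647, 0.609 and 1.14 in BM-Treg and 0.362, 0.397, 0.373 and 0.362 in SP-Treg. SP-Treg libraries were nearly alike in this ratio, whereas BM-Treg replicate 4, the marrow library of batch 3, was the highest of all 8. The ratio of Cdkn1b to Cdk6 was 2.23, 2.06, 1.92 and 2.55 in BM-Treg and 0.772, 0.977, 0.963 and 0.787 in SP-Treg. Here too the tissues did not overlap and BM-Treg replicate 4 was highest. These ratios restate the levels above within a library, where scaling between libraries has no part, and were not tested.

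**Figure D3:**
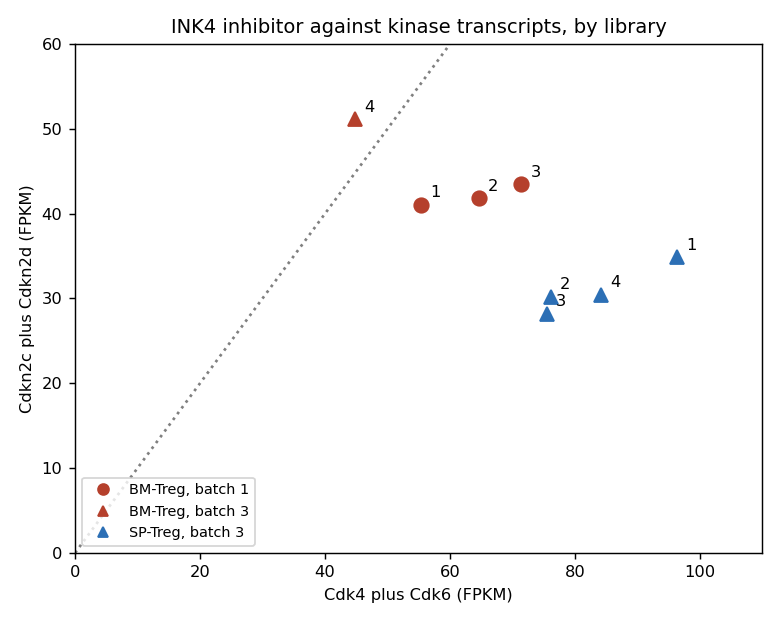
Summed FPKM of the INK4 inhibitors Cdkn2c and Cdkn2d (y axis) against summed FPKM of the kinases Cdk4 and Cdk6 (x axis), 1 point per library, numbered by replicate, with circles for batch 1, triangles for batch 3 and a dotted line of equal levels. The BM-Treg points lie to the upper left of the SP-Treg points, and only BM-Treg replicate 4, at a ratio of 1.14, lies above the line.

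The deposited transcript estimates separate the forms of each gene, although RSEM's estimates for transcripts that share most of their sequence are uncertain and were described without a test. Ccnd1, Ccnd2, Cdk6 and Cdkn2d were almost wholly 1 transcript in every library. Cdkn2c was split between a long form of 2471 bases (ENSMUST00000097921), which begins at 109667189, and a short form of 1106 bases (ENSMUST00000063531), which begins at the downstream start shown above. The upstream window shown above (109666707 to 109667006) does not hold the start of the long form. The long form was at 8.28, 9.85, 6.26 and 5.27 CPM in the marrow and at 3.29, 3.72, 3.11 and 2.11 CPM in the spleen, without overlap. The short form was at 12.8, 15.7, 15.6 and 21.6 CPM in the marrow and 17.6, 11.0, 14.5 and 12.3 CPM in the spleen, with overlap. As a share of the gene, the long form was 28.7% to 39.3% in the libraries of batch 1 and 14.7% to 25.2% in those of batch 3. BM-Treg replicate 4 (19.6%) lay within the range of SP-Treg. The higher share was thus measured in the marrow libraries of batch 1, in which tissue, batch and sex cannot be told apart.

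Ccng2, whose total did not differ, had its estimates divided between a coding transcript (ENSMUST00000121127) and one annotated with a retained intron (ENSMUST00000130183). The retained-intron form took 59.4%, 77.1%, 69.2% and 69.0% of the gene in BM-Treg and 52.2%, 58.7%, 46.4% and 59.3% in SP-Treg. The coding form took 38.3%, 20.0%, 28.2% and 28.8% in BM-Treg and 47.6%, 40.3%, 48.3% and 38.4% in SP-Treg. The shares did not overlap, but BM-Treg replicate 1 and SP-Treg replicate 4 were nearly equal. In CPM the coding form was at 25.0, 13.3, 18.8 and 17.2 in BM-Treg and 31.5, 28.2, 27.7 and 20.2 in SP-Treg, where the tissues overlapped.

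For Cdk4, the full coding transcript (ENSMUST00000006911) was at 6.76, 17.2, 22.1 and 22.5 CPM in the marrow and 31.7, 28.9, 25.9 and 29.3 CPM in the spleen, without overlap. The retained-intron form ENSMUST00000140254 was at 11.5, 14.3, 13.6 and 9.96 CPM in the marrow and 16.4, 12.6, 15.9 and 16.9 CPM in the spleen, with overlap. The coding share of BM-Treg replicate 1 was only 22.5%, against 41.0% to 58.7% in the other BM-Treg and 51.1% to 60.1% in SP-Treg. For Ccnd3 the shares moved with batch: transcript ENSMUST00000171031 took 35.0% to 47.0% of the gene in batch 1 and 14.6% to 23.5% in batch 3, where BM-Treg replicate 4 had 15.5%. Ccnd3 overlaps Bysl on the other strand by 353 bases, as Ccnd1 overlaps Oraov1 by 818 bases, and a processed copy, Ccnd3-ps, was listed at 0.399 to 0.837 CPM.

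**Figure D4:**
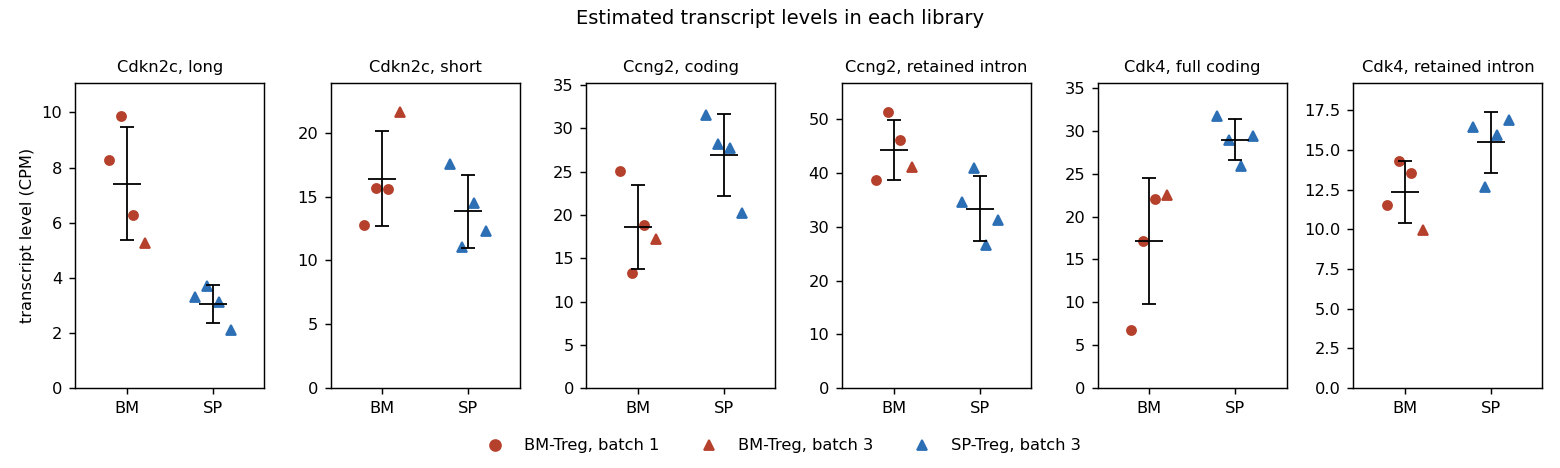
Estimated level in CPM (y axis, from 0) of transcripts of Cdkn2c, Ccng2 and Cdk4 in each BM and SP Treg library, with circles for batch 1, triangles for batch 3 and the mean with SD (n = 4 per tissue) in black. The long Cdkn2c and the full coding Cdk4 transcripts do not overlap between the tissues, while the short Cdkn2c and the Cdk4 retained-intron transcripts do.

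Beyond the 10 genes, the G1 to S machinery was described through a list of 46 other genes, of which 44 were tested. Of these, 2 rose and 5 fell in BM-Treg and 37 did not pass, where 8.75% of all genes tested passed, with a median log2 fold change of -0.085 against -0.012 over all genes. In 9 of the 44 the tissues did not overlap, as in 16.2% of all genes tested. The pocket protein gene Rbl2 (p130), which with E2F4 represses cell cycle genes in resting cells, rose from 363 ± 62.7 to 534 ± 10.9 CPM (SD, n = 4 per tissue), by 0.56 ± 0.12 (SE) on the log2 scale, with an adjusted p of 0.00999. Its value was 0.59 within batch 3, and with batch as a term it did not pass (adjusted p = 0.128). Fbxo31, an F-box protein that marks cyclin D1 for degradation, rose by 0.95 ± 0.26 (SE) with an adjusted p of 0.0360, and with batch as a term by 1.49 with an adjusted p of 0.0387.

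The genes that fell were E2f1, E2f3, E2f6, Tfdp1 and Cdc25a. E2f1 and E2f3 encode activating E2F factors and E2f6 a repressive one. E2f1 was at 1.15, 1.95, 2.85 and 3.85 CPM in the marrow and 5.90, 4.39, 5.78 and 6.47 CPM in the spleen, with a log2 fold change of -1.22 ± 0.33 (SE) and an adjusted p of 0.0347. E2f3 had a log2 fold change of -0.70 (adjusted p = 0.0240) and E2f6 one of -0.54 (adjusted p = 0.0494). Tfdp1, the DP partner through which E2F factors bind DNA, fell from 36.1 ± 4.89 to 21.8 ± 1.45 CPM (SD, n = 4 per tissue), a change of -0.72 ± 0.13 (SE) on the log2 scale, with an adjusted p of 0.00309. Cdc25a, the phosphatase that activates CDK2, had a log2 fold change of -0.57 (adjusted p = 0.0362). Within batch 3 the values were -0.53 for E2f1, -0.75 for E2f3, -0.57 for E2f6, -0.79 for Tfdp1 and -0.57 for Cdc25a. E2f1 was thus smaller there than in the main comparison, and the others were about as large. With batch as a term all 5 lost the call, with adjusted p from 0.0698 for Tfdp1 to 0.575 for E2f1.

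Of the CDK2 branch, Cdk2, Ccne1 and Ccne2 did not pass the test. Cdk2 itself had 16.9 ± 3.98 CPM in the marrow and 11.8 ± 2.60 CPM in the spleen (log2 fold change 0.51 ± 0.20 SE, adjusted p = 0.138). Its cyclins Ccne1 and Ccne2 had log2 fold changes of -0.27 (interval -0.93 to 0.39) and -0.33 (interval -0.82 to 0.16), with adjusted p of 0.649 and 0.429. Within batch 3 the values were 0.95 for Cdk2, -0.081 for Ccne1 and 0.017 for Ccne2, so that the sign of Ccne2 turned, and with batch as a term the adjusted p of Cdk2 was 0.0851. Rb1, the retinoblastoma gene, had 125 ± 16.5 CPM in the marrow and 109 ± 10.7 CPM in the spleen (log2 fold change 0.19, adjusted p = 0.326). The change among pocket proteins that passed was therefore that of Rbl2, and whether it differed from that of Rb1 was not tested.

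**Figure D5:**
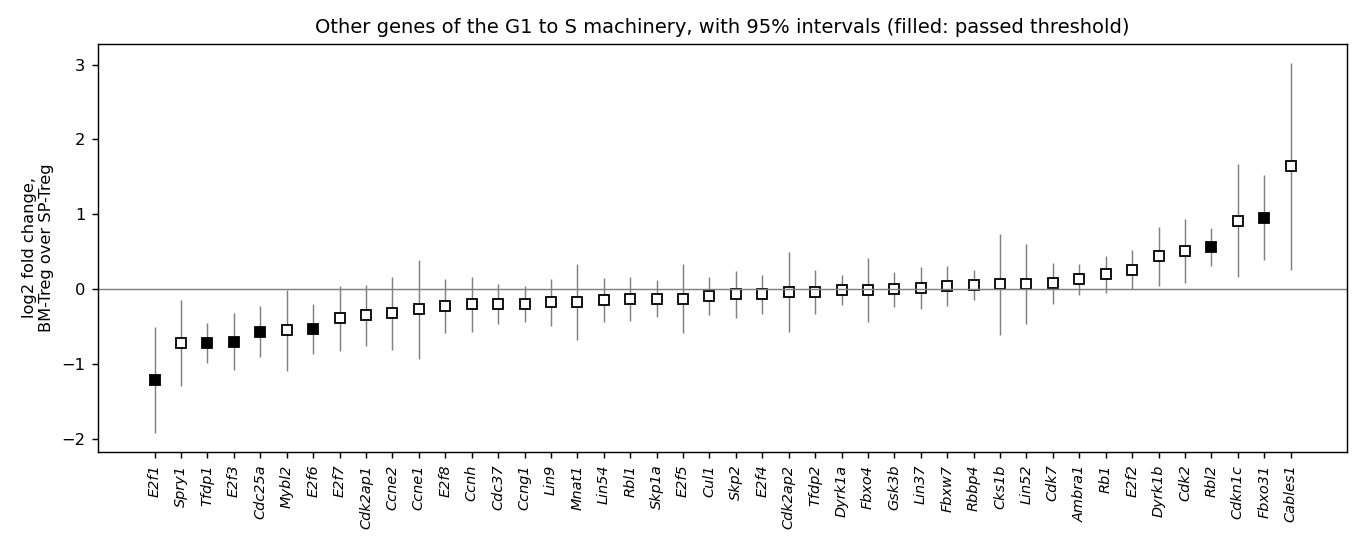
Log2 fold change of BM-Treg over SP-Treg (y axis) with 95% confidence intervals for the 44 tested genes of the G1 to S list (x axis, in order of fold change), filled where the adjusted p passed 0.05. E2f1, Tfdp1, E2f3, Cdc25a and E2f6 are filled below 0, and Rbl2 and Fbxo31 above 0.

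Markers of proliferation were mixed. Of 24 genes, all tested, 6 fell in BM-Treg and 18 did not pass, where 5.02% of all genes tested fell, with a median log2 fold change of -0.22. The 6 were the replication licensing genes Mcm2, Mcm3, Mcm5, Mcm6, Mcm7 and Cdc6, of which Mcm6 fell from 127 ± 23.9 to 66.0 ± 6.57 CPM (log2 fold change -0.94, adjusted p = 0.000909) and Cdc6 from 11.1 ± 1.59 to 4.67 ± 0.749 CPM (log2 fold change -1.25, adjusted p = 0.00175; SD, n = 4 each). Mcm2 and Mcm3 had log2 fold changes of -0.62 each (adjusted p = 0.00283 and 0.00801) and Mcm5 one of -0.94 (adjusted p = 0.00463). With batch as a term all 6 lost the call, with adjusted p from 0.0706 for Mcm6 to 0.625 for Mcm7. Within batch 3 they stayed negative, at -0.52 for Mcm2, -0.69 for Mcm3, -0.58 for Mcm5, -0.80 for Mcm6, -0.15 for Mcm7 and -1.10 for Cdc6. Mki67, the gene of the Ki-67 antigen carried by cycling cells, was at 1212, 800, 586 and 1407 CPM in the marrow and 928, 912, 1159 and 1055 CPM in the spleen. The BM-Treg libraries thus spread on both sides of the SP-Treg, with a log2 fold change of -0.018 ± 0.24 (SE), an interval of -0.56 to 0.52 and an adjusted p of 0.974. Within batch 3 its log2 fold change was 0.49, and with batch as a term it was 0.47 with an adjusted p of 0.432. Of the 18 genes that did not pass, all but Mcm4, Top2a, Rrm2 and Bub1 were positive within batch 3, up to 1.23 for Cdc20. Those exceptions lay from -0.14 for Bub1 to -0.013 for Rrm2.

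The known regulators of Cdkn1a and of Cdkn1b and Ccng2 were described through target genes of p53 and of FOXO factors. Of 22 tested p53 targets, Sesn1 rose (0.50, adjusted p = 0.00881), Trp53inp1 fell (-0.56, adjusted p = 0.0246) and 20 did not pass, a share called that is near the 8.75% of all genes tested, with a median of 0.12. With batch as a term both lost the call (adjusted p = 0.155 and 0.248). Of 18 FOXO targets, all tested, 3 rose and 2 fell, where 8.75% of all genes tested passed. Il7r, the receptor chain for IL-7, rose from 339 ± 71.3 to 599 ± 20.3 CPM (SD, n = 4 each; log2 fold change 0.82, adjusted p = 0.00218), and Trib1 rose by 0.73 (adjusted p = 0.00290), whereas Bcl6 had a log2 fold change of -0.89 (adjusted p = 0.00227). With batch as a term these 3 lost the call, with adjusted p of 0.0706 for Il7r, 0.0715 for Trib1 and 0.0802 for Bcl6, while their values within batch 3 were 0.81, 0.76 and -0.91. The other called targets were Irs2 (0.97, adjusted p = 0.00394) and Ccr7 (-1.30, adjusted p = 0.0163). Irs2 kept the call with batch as a term (1.33, adjusted p = 0.0179), whereas Ccr7 lost it (adjusted p = 0.277). Their values within batch 3 were 1.35 and -1.07. The median of the FOXO list was 0.062.

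The genes most like Cdk6 across the 8 libraries, searched among the 8557 genes whose mean log2 CPM reached 3, were Zc3h12d, Ipo5 and Usp37, with Pearson's r of 0.983, 0.982 and 0.982. Their log2 fold changes were -0.83, -0.60 and -0.41 and all 3 passed the test. The genes most like Cdkn2d were Oaz1, Rhot2 and Mpc2, with r of 0.965, 0.960 and 0.954. Their log2 fold changes were 0.28, 0.13 and 0.38, with adjusted p of 0.117, 0.435 and 0.139. These correlations are over libraries that share the contrast of tissue, depth and batch, and are given as a description.

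Expected counts summed to 12427136 to 21921252 per library, highest in the marrow libraries of batch 1, and each of the 10 genes had at least 55.1 counts in every library. The sort was checked by Foxp3, at 1746 ± 246 CPM in the marrow and 1458 ± 193 CPM in the spleen (SD, n = 4 each, adjusted p = 0.241), and by 9 T cell and Treg genes, which summed to 7677 to 9137 CPM in BM-Treg and 8462 to 9228 CPM in SP-Treg. Markers of other cells were also summed, and which cells carried this RNA was not tested. Plasma cell markers, a list that includes Prdm1 and Xbp1, had the highest sums of these lists. Of them 3 were tested and 0 passed, and the tissues overlapped in the sum. These sums are not a measure of the number of such cells. The 12 B cell markers summed to 15.5 to 21.7 CPM in the marrow and 17.0 to 165 CPM in the spleen. The 9 erythroid markers listed summed to 8.59 to 12.5 CPM and 2.45 to 164 CPM, and the B cell gene Igll1 was at 0 in every library. The sums for the marrow and the spleen were 10.9 to 12.6 and 13.2 to 41.1 CPM for CD8 T cell markers, 7.76 to 16.1 and 1.94 to 23.7 CPM for neutrophil markers (Ly6g at 0 in every library), 27.7 to 40.5 and 28.9 to 50.7 CPM for monocyte markers, 342 to 491 and 355 to 495 CPM for plasma cell markers, 66.0 to 67.7 and 37.2 to 81.4 CPM for markers of plasmacytoid dendritic cells, and 5.83 to 14.5 and 4.63 to 12.3 CPM for stem cell markers (Mecom at 0 in every library). In these lists Ebf1 (B cells), Cd8a, Vcam1 (macrophages) and Procr (stem cells) fell and Mmp9 (neutrophils) rose in BM-Treg. Of all genes tested, 8.75% passed. Log2 fold changes were negative for 7 of 7 tested B cell and 2 of 2 tested CD8 T cell markers. They were negative for 4 of 6 monocyte, 2 of 4 stem cell and 2 of 3 neutrophil markers tested. Mmp9 thus went against the other tested neutrophil markers. Of the SP-Treg, replicate 1 had the lowest B cell (17.0 CPM) and erythroid (2.45 CPM) sums. Its plasma cell sum (495 CPM) was the highest of all 8 libraries, and its stem cell sum was 11.9 CPM. It had the highest Cdk6 (203 CPM) and the lowest Cdkn2d (16.8 CPM) of all 8 libraries, and any relation to the marker sums was not tested. The part of other cells in any difference above was not tested. In bulk samples a smaller share of cells that express a gene and less of its RNA per cell cannot be told apart.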

How the data were processed

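FoxP3+ Treg were sorted from bone marrow and spleen, and 15 ng of RNA per library was amplified (SPIA, NuGEN) for single-end reads of 80 nt. What the authors deposited were expected counts per gene and per transcript, not normalized between libraries, and FPKM values, which relate these counts to transcript length and depth. The submitters' processing notes name cutadapt 1.9, STAR 2.5.2a, RSEM 1.2.30 and GRCm38. The annotation and any use of strand are not given in the sources used here. All 8 libraries were used, and 0 columns of samples were left without a match.

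Expected counts were rounded to whole numbers, filtered by edgeR's default filter on the tissues (13397 of 38215 genes kept), scaled by TMM and compared by quasi-likelihood tests (edgeR 4.0.16, limma 3.58.1 and DESeq2 1.42.0 in R 4.3.3) without a covariate, with Benjamini-Hochberg adjustment over all genes tested and a threshold of 0.05. Log2 CPM used a prior count of 2. The study names no test for the RNAseq. Exact permutation tests per gene were computed but are not given, since with 4 against 4 libraries their p is fixed once the libraries do not overlap. The steps were tested on simulated data. Libraries of a tissue differed by more than sampling noise, with chi-square per degree of freedom from 14.2 to 92.4. The paper does not state any use of molecular identifiers. Each SE comes from edgeR's fit, in which the spread between libraries is moderated by that of other genes.

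The 10 genes and all lists were chosen with earlier results of these data known. Named are the 10 genes; of the G1 to S list, the genes called and Ccne1, Ccne2, Cdk2, Rb1, Rbl2 and E2f1; Mki67 and up to 5 called proliferation genes by smallest adjusted p; up to 3 called p53 and FOXO targets each; Foxp3; and, for each called gene of the 10, the 3 most correlated genes. Irs2, Ccr7, Mcm4, Mcm7, Top2a, Rrm2, Bub1, Cdc20 and the called marker genes are also named, chosen after their values were seen. Of the 2 rows named Ebf1, that with the higher total was used. Lists of markers of T cells and Treg, CD8 T cells, neutrophils, monocytes, erythroid cells, B cells, plasma cells, plasmacytoid dendritic cells and stem cells were summed in CPM. Promoters came from RefSeq, GRCm38.p6, and transcript classes from GENCODE M21. The alternatives were DESeq2's size factors, DESeq2's test, limma-trend with a pseudocount of 1 or 0.1 on FPKM, limma-voom, no filter beyond 1 count, at least 10 counts in every library, batch as a term, batch 3 alone, a replicate block, the omission of each library and, chosen after seeing the data, libraries thinned to the smallest total.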

Additional observations from a re-analysis of the deposited data

Results flagged for a closer look

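In 3 of the 20 groups of 4 libraries (10 genes in 2 tissues), 1 library stood apart by Dixon's test, which chance passes in about 1 group in 20. Cdk6 in SP-Treg replicate 1 (203 CPM, the others 155 to 157 CPM) had a gap of 0.964 of the group's range. Without that library the log2 fold change of Cdk6 was -0.78 with an adjusted p of 0.0134 in edgeR's test. Cdkn1a in SP-Treg replicate 2 (9.50 CPM, the others 5.54 to 5.86 CPM) had a gap of 0.919. Cdkn1b in BM-Treg replicate 4 (169 CPM, the others 233 to 242 CPM) had a gap of 0.875, and this was the marrow library of batch 3.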

How the results depend on the processing

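Over the 10 genes and 19 alternatives, 168 of 190 pairs kept both the direction and the side of the threshold, 8 lost the call, 11 gained one and 3 changed sign. Cdk6 passed in all 19. The changes of sign were Ccng2 with batch as a term (-0.045) and in batch 3 alone (-0.027), and Ccnd1 without SP-Treg replicate 2 (0.042, the fits without 1 library ranging from -0.46 to 0.042), none of which passed the test. Of the 10 genes, DESeq2 called 5 (Cdk4, Cdk6, Cdkn1b, Cdkn2c and Cdkn2d), the lack of a filter and the filter of at least 10 counts called 4 each (Cdk6, Cdkn1b, Cdkn2c and Cdkn2d), batch as a term and batch 3 alone called 1 each (Cdk6), and fits without 1 library called 1 to 2. The cause of these differences was not tested. Over all genes, 1172 of 13397 were called. DESeq2 called 1703 of 13397, the lack of a filter gave 1326 of 23091 and at least 10 counts 1231 of 11890. The numbers tested differ, and without a filter the share called was lower than in the main fit. Limma-voom called 1218 of 13397 and, of the 10 genes, Cdk6 and Cdkn2d. The number was 690 to 1048 when 1 library was left out, the lowest without BM-Treg replicate 2. Limma-trend called 765 on log2(FPKM + 1) and 728 on log2(FPKM + 0.1), with 63.0% and 62.4% of calls higher in BM-Treg instead of 42.6%, and at least 10 counts gave 51.3%. Batch as a term called 258 and batch 3 alone 79, where the lone BM-Treg library is assumed to vary like the SP-Treg.

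The labels share replicate numbers between the tissues without saying that these mark a common mouse or day. Replicates 1 to 3 are labelled female and batch 1 in BM-Treg but male and batch 3 in SP-Treg, so by these labels they do not share a mouse. Deviations of same-numbered libraries correlated at -0.11, 0.059, -0.18 and 0.040, and the numbers were not taken as pairs. By the labels, the replicate block therefore joins libraries of different mice for replicates 1 to 3. With the replicate block, 948 genes were called, and among the 10 genes 2, Cdk6 and Cdkn1b (adjusted p = 0.0362), while Cdkn2d missed the threshold (adjusted p = 0.0570).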
